A study of Homo sapiens with 6 samples.

Results

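The genes described here make S-adenosylmethionine (SAM), the methyl donor of the cell, and write, read and erase N6-methyladenosine (m6A) on RNA. They were chosen by symbol: MAT2A, MAT2B and AHCY for SAM, METTL16, METTL3, METTL14 and WTAP as writers, YTHDC1 as a reader, and ALKBH5 and FTO as erasers. Of these 10 genes, 9 had a row in the deposited table of 12306 rows, and FTO was not analysed here. The choice was made with the response of MAT2A in these libraries already known, so the members' differences between groups are given as descriptions. Whether the fit over the whole table called a member is stated, and nothing is read from it.

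The cells were 92.1, an established human uveal melanoma line, and all libraries come from that single line. The treated group had 2 h with 1 µM VS-4718, a compound that blocks the kinase FAK, the product of PTK2, and the control group had 2 h with DMSO vehicle. Each group held 3 libraries of total RNA from cells grown in RPMI-1640 with serum. Nothing in the labels says whether the 3 came from separate cultures, so any spread given here may be technical. Each deposited number is the log2 of abundance per transcript length, scaled to a fixed total like TPM, so read depth is unknown.

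MAT2A is the catalytic subunit of the methionine adenosyltransferase found in most tissues, and MAT2B is its regulatory subunit. AHCY hydrolyses S-adenosylhomocysteine, the product left after a methyl group has been transferred. METTL3 and METTL14 form the core that writes most m6A on mRNA, WTAP holds that core in its larger complex, and METTL16 is a separate writer that acts on U6 small nuclear RNA and on the MAT2A transcript. In human cells METTL16 binds hairpins in the MAT2A 3′ UTR, and its activity there is known to tie splicing and decay of the transcript to the supply of SAM. YTHDC1 is the nuclear m6A reader, and ALKBH5 and FTO are demethylases.

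The motif that METTL16 recognises in these hairpins is shown because it links 2 of the members by sequence. The spliced MAT2A transcript of GENCODE 29 (GRCh38) was searched on its own strand for TACAGAGAA and TACAGAAAA, written as DNA; matches of these forms cannot overlap each other. It held 6 matches, all in the 3′ UTR in exon 9 of 9, and 5 of them had the first form. Capitals mark the motif, lower case the bases on each side.
MAT2A site 1, chr2:85543806-85543826, plus strand: gtaggcTACAGAGAAgccttc
MAT2A site 2, chr2:85544593-85544613, plus strand: atgtcaTACAGAGAAgtcaca
MAT2A site 3, chr2:85544778-85544798, plus strand: tgtagcTACAGAGAAaccagc
MAT2A site 4, chr2:85544893-85544913, plus strand: cgtaagTACAGAGAAgccatc
MAT2A site 5, chr2:85545008-85545028, plus strand: gtgtccTACAGAAAAaccttg
MAT2A site 6, chr2:85545116-85545136, plus strand: gtgtggTACAGAGAAgccagc

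The first match began 39 bases into the 3′ UTR, which is 1508 bases long, and the other 5 lay between 826 and 1349 bases into it. Among the longest 3′ UTRs of 19089 protein-coding genes, 4.42% held at least 1 match and 0.241% held at least 2. MAT2A was the 1 gene with 3 or more, but the forms searched are those of its own hairpins, so nothing is read from this rank. In windows as long as the MAT2A 3′ UTR, taken from the start of 7666 3′ UTRs, 4.30% held at least 1 match. None of the other 9 members had a match in its longest 3′ UTR; a missing match says only that these letters are not there.

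**Figure D1:**
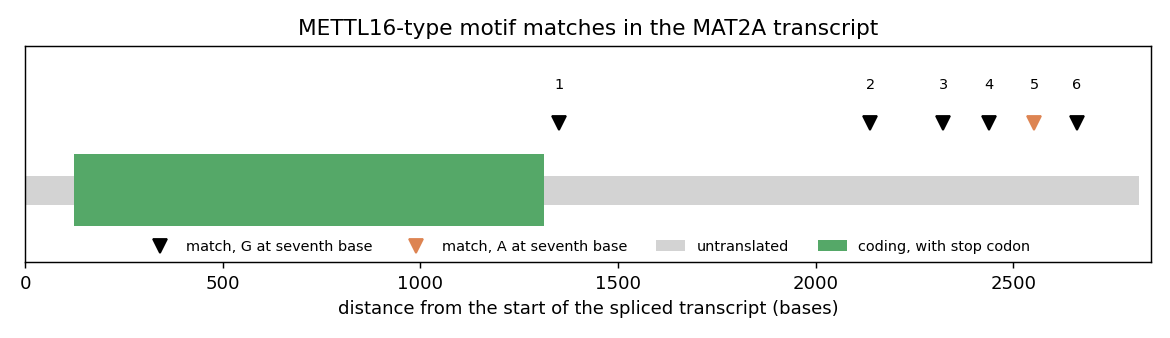
Map of the spliced MAT2A transcript, with distance from its start in bases on the x axis. The green bar is the coding part, the grey bar is untranslated, and the 6 numbered triangles are the motif matches, 1 near the stop codon and 5 in the distal part of the 3′ UTR; the orange triangle is site 5, the second form of the motif.

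Levels over both groups differed widely between members. METTL3 was the most abundant member row, with a lowest, median and highest log2 level over the 6 libraries of 7.67, 7.82 and 7.96, and its mean exceeded that of 95.1% of all rows. MAT2B followed at 6.27, 6.34 and 6.56, MAT2A at 5.56, 5.86 and 6.16, and ALKBH5 at 5.24, 5.40 and 5.44. None of these 4 ranges overlapped its neighbour in the order. METTL14 (4.40, 4.63 and 5.18), WTAP (4.25, 4.50 and 4.70) and YTHDC1 (3.71, 4.12 and 4.29) came next, and the METTL14 range overlapped that of WTAP, and the WTAP range that of YTHDC1. METTL16 was lower and apart from YTHDC1, at 2.41, 2.72 and 3.18.

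AHCY was the lowest row, between -1.62 and 0.89 log2 units with a median of -0.78, and its mean was too low to be tested. The row names of the table follow mouse usage, although the line is human, and the reason is not known here. Of these names, 2666 matched neither a human symbol nor a synonym of a single human gene. They held between 43.5% and 44.7% of a library's summed values. A level therefore describes a row, and part of a gene's reads may lie elsewhere in the table. This was not tested for AHCY or for any other member. The order of levels and the ratios between genes given here are thus those of rows. Melanocyte genes fitted the label in part: PMEL, a melanosome matrix protein, stood at 12.24 ± 0.09 log2 units with VS-4718 and 12.21 ± 0.07 in vehicle (SD, n = 3 each), while the rows of MLANA, TYR and DCT, 3 of the 7 melanocyte markers, were too low to be tested. The summed fibroblast marker rows (4 of 4 markers with a row) lay between 0.925 and 1.04 TPM-like units with VS-4718 and between 0.271 and 1.10 in vehicle. PECAM1, the 1 of 3 endothelial markers with a row, lay between 3.62 and 8.42 with VS-4718 and between 4.78 and 7.23 in vehicle. PTPRC, the 1 of 3 immune markers with a row, stayed below the tested range. So did KRT18, the 1 of 4 epithelial markers with a row. Markers without a row have no level here, so their absence says nothing about other cell types. PTK2, the gene of the drug target, stood at 4.12 ± 0.09 with VS-4718 and 4.27 ± 0.41 in vehicle, a log2 fold change of -0.15 (SE 0.20) that did not pass (limma, adjusted p = 0.84).

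**Figure D2:**
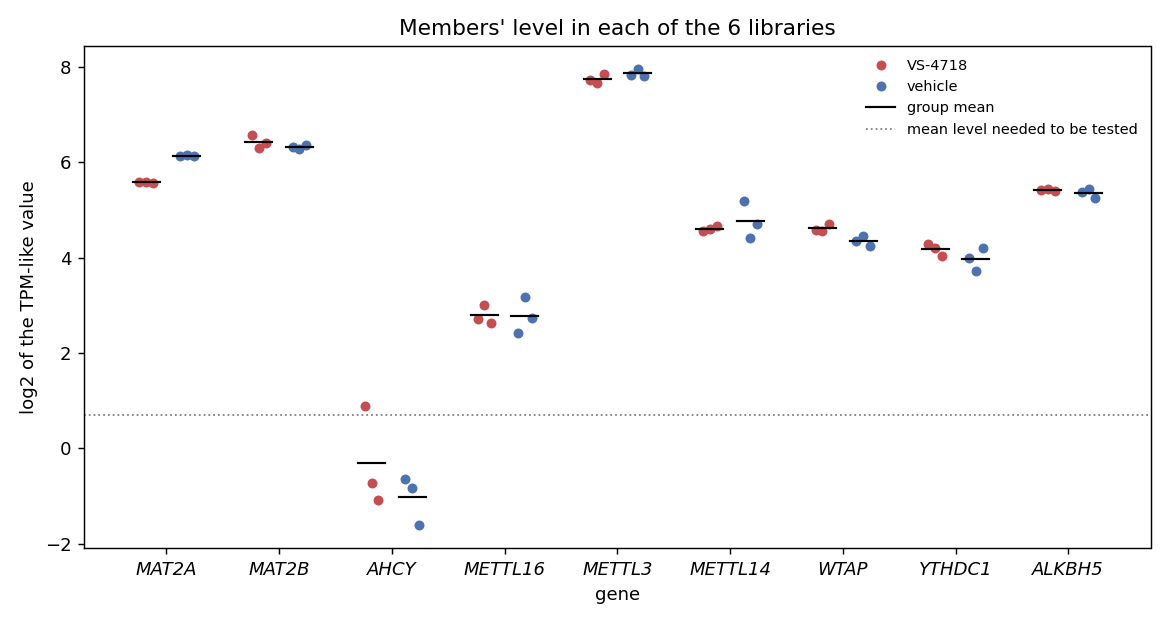
Log2 level of the 9 members with a row (y axis, log2 of the TPM-like value) in each library, VS-4718 libraries in red at the left and vehicle libraries in blue at the right of each gene; black lines are group means. MAT2A and WTAP are the members whose groups do not overlap, AHCY lies around and below the dotted line at 0.70 that a row's mean had to exceed to be tested, and among the tested members the METTL16 and METTL14 points are spread widest in vehicle.

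MAT2A was lower in every VS-4718 library than in any vehicle library. Its TPM-like values were 48.0, 48.3 and 47.1 with VS-4718, against 69.7, 71.3 and 70.7 in vehicle. On the log2 scale these are 5.59, 5.59 and 5.56 with VS-4718, and 6.12, 6.16 and 6.14 in vehicle. The libraries of each group lay within 0.04 log2 units of each other, and the gap between the groups was many times wider. The mean log2 level was 5.58 ± 0.02 with VS-4718 and 6.14 ± 0.02 in vehicle (SD, n = 3 each), a difference of -0.56 and a change of -32.3% in the geometric mean. Since this is RNA from whole cultures, fewer cells expressing the gene and less RNA per cell cannot be told apart.

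The spread of MAT2A around its group means was among the smallest in the table. Its residual SD of 0.0175 log2 units was at percentile 0.271 of the 9229 tested rows, whose median was 0.145. MAT2A was chosen with its response known, which favours a row of small spread, so nothing is read from this percentile. The SE from MAT2A's own spread would be 0.0143, whereas limma, which draws each row's variance towards that of rows of like level, gave 0.05. Across all tested rows, 169 (1.83%) had a log2 fold change as low as or lower than that of MAT2A.

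The row gives 1 value for the whole gene. GENCODE 29 places MAT2A on chromosome 2 from 85539165 to 85545280 on the plus strand (GRCh38), with 6 transcripts, 2 of them protein coding and 3 with a retained intron. Spliced and intron-retaining transcripts, the forms between which SAM supply is known to shift this gene, cannot be told apart in these values.

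MAT2B was not set apart between the groups. It had 94.2, 78.9 and 84.9 TPM-like units with VS-4718, against 79.6, 77.3 and 82.8 in vehicle. The groups overlapped, and library 1 of VS-4718 was the highest. The log2 fold change was 0.10 (limma SE 0.08), and it ran from 0.04 without VS-4718 replicate 1 to 0.16 without VS-4718 replicate 2. MAT2B lies on chromosome 5 from 163503114 to 163519336.

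The difference between the log2 values of MAT2A and MAT2B within a library cannot be moved by a scale factor of that library. It uses the same MAT2A values again, so nothing further about MAT2A is read from it. It was -0.97, -0.71 and -0.85 with VS-4718, against -0.19, -0.12 and -0.23 in vehicle. All treated libraries lay below all vehicle libraries. The mean was -0.84 ± 0.13 with VS-4718 and -0.18 ± 0.06 in vehicle (SD, n = 3 each), a change of -0.66. The catalytic subunit's row thus stood at 0.557 times the regulatory subunit's row with VS-4718 and at 0.883 times in vehicle. The change combines the -0.56 of MAT2A with the 0.10 of MAT2B, whose groups overlapped. It was -0.60 without VS-4718 replicate 1. MAT1A, the related catalytic subunit known from adult liver, stood at 3.49, 3.45 and 3.28 log2 units with VS-4718, against 2.75, 3.09 and 3.23 in vehicle. Its groups did not overlap and its log2 fold change was 0.38 (SE 0.15), but it did not pass (limma, adjusted p = 0.49). Whether reads shared between such related genes were split between their rows was not tested.

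AHCY had 1.85, 0.600 and 0.469 TPM-like units with VS-4718, against 0.642, 0.563 and 0.326 in vehicle. VS-4718 replicate 1 stood above the rest, and the other treated libraries overlapped with vehicle. The difference of mean log2 values was 0.71, and 0.11 without that library. AHCY lies on chromosome 20 from 34280268 to 34311802.

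**Figure D3:**
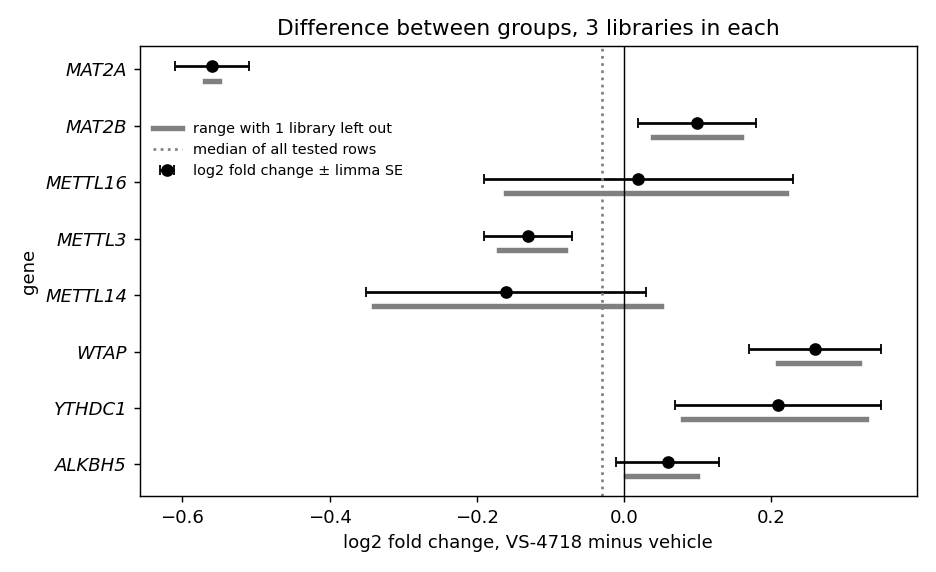
Log2 fold change of the 8 tested members, VS-4718 minus vehicle (x axis), with limma's SE as error bars and, as grey bars, the range when each library is left out in turn. MAT2A at -0.56 is farthest from 0 with the narrowest range, the grey bars of METTL16 and METTL14 cross 0, and the dotted line marks the median of all tested rows, -0.03.

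METTL16, the writer that acts on MAT2A, had 6.58, 8.07 and 6.19 TPM-like units with VS-4718, against 5.30, 9.04 and 6.61 in vehicle. The vehicle libraries enclosed the treated ones. The log2 fold change was 0.02 (limma SE 0.21), and it ran from -0.16 without vehicle replicate 1 to 0.22 without vehicle replicate 2. A difference of the size of this SE, in either direction, would not be detectable for METTL16. The gene lies on chromosome 17 from 2405562 to 2511891.

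METTL3, the catalytic subunit of the main writer, stood at 7.72, 7.67 and 7.84 log2 units with VS-4718, against 7.83, 7.96 and 7.81 in vehicle. VS-4718 replicate 3 lay within the vehicle range and the other treated libraries below it. The log2 fold change was -0.13 (limma SE 0.06), and -0.08 without vehicle replicate 2. METTL14, its RNA-binding partner, stood at 4.55, 4.59 and 4.66 with VS-4718, against 5.18, 4.40 and 4.70 in vehicle. The treated libraries lay close together inside the vehicle range, which vehicle replicate 1 widened. Its log2 fold change of -0.16 (limma SE 0.19) was 0.05 without that library and -0.34 without vehicle replicate 2.

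WTAP, the adaptor of the writer complex, was the member besides MAT2A whose groups did not overlap. It had 23.9, 23.5 and 26.0 TPM-like units with VS-4718, against 20.4, 21.9 and 19.0 in vehicle. The gap between the highest vehicle library and the lowest treated one was narrow. The mean log2 level was 4.61 ± 0.08 with VS-4718 and 4.35 ± 0.10 in vehicle (SD, n = 3 each), and the log2 fold change was 0.26 (limma SE 0.09), between 0.21 and 0.32 with a library left out. WTAP was not among the rows called over the whole table.

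Within a library, the log2 value of WTAP minus that of METTL3 was -3.14, -3.12 and -3.13 with VS-4718, against -3.49, -3.50 and -3.57 in vehicle, a pair chosen after the values were seen. The groups did not overlap, and the libraries of each group agreed closely. The mean was -3.13 ± 0.01 with VS-4718 and -3.52 ± 0.04 in vehicle (SD, n = 3 each), so the WTAP row stood at 0.114 times the METTL3 row with VS-4718 and at 0.0873 times in vehicle. For METTL3 minus METTL14 the mean was 3.14 ± 0.05 with VS-4718 and 3.11 ± 0.45 in vehicle, and the groups overlapped. METTL3 lies on chromosome 14 from 21498133 to 21511375, METTL14 on chromosome 4 from 118685368 to 118715433 and WTAP on chromosome 6 from 159725585 to 159756319.

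**Figure D4:**
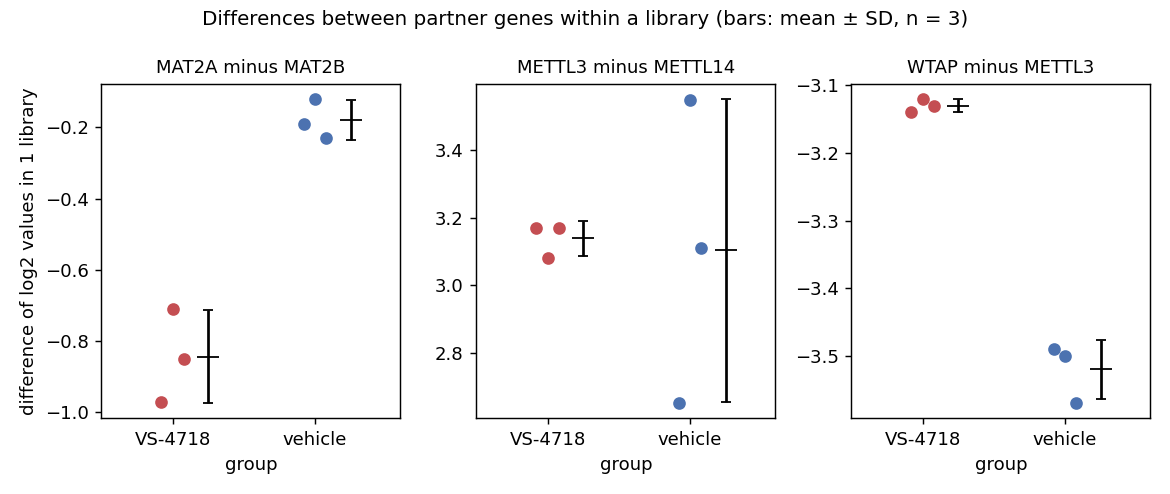
Difference of the log2 values of 2 partner genes within each library (y axis, with a range of its own in each panel), VS-4718 at the left and vehicle at the right, with mean ± SD (n = 3). MAT2A minus MAT2B averages -0.84 with VS-4718 and -0.18 in vehicle, WTAP minus METTL3 averages -3.13 with VS-4718 and -3.52 in vehicle, and for METTL3 minus METTL14 the treated libraries lie inside the vehicle range.

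YTHDC1, the nuclear reader, had 19.6, 18.4 and 16.5 TPM-like units with VS-4718, against 16.0, 13.0 and 18.3 in vehicle. The groups overlapped through vehicle replicate 3. Its log2 fold change was 0.21 (limma SE 0.14), with 0.08 without vehicle replicate 2 and 0.33 without vehicle replicate 3. ALKBH5, a demethylase, had 42.7, 43.2 and 42.0 with VS-4718, against 41.6, 43.5 and 37.9 in vehicle. All treated values lay inside the vehicle range, and the log2 fold change was 0.06 (limma SE 0.07). It was 0.0037 without vehicle replicate 3 and 0.10 without vehicle replicate 2. YTHDC1 lies on chromosome 4 from 68310387 to 68350089 and ALKBH5 on chromosome 17 from 18183078 to 18209954.

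Counted over the whole table, 1 of the 8 tested members, MAT2A, was among the 12 rows with an adjusted limma p under 0.05, which are 0.130% of the tested rows. The groups did not overlap for 2 of the 8, against 16.4% of all tested rows. Nothing is read from these counts, because the members were chosen with this contrast in view. The means of 3 tested members were lower with VS-4718, against 58.2% of all tested rows, and those of 5 were higher, with a median log2 fold change of 0.04, against -0.03 over all tested rows. The call of MAT2A was lost in 8 of 13 other fits. These were the limma fits with any single library left out, with the replicate number as a block and without the mean-variance trend. Its log2 fold change stayed between -0.57 and -0.55 in these 8, and neither the block nor the trend setting can change it.

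The rows most like MAT2A were found by the root mean square difference over the 6 libraries, after each row's own vehicle mean had been subtracted. The closest of the tested rows with a human name was NME6, a nucleoside diphosphate kinase family member, at 0.0374 log2 units. It stood at 3.89, 4.0 and 3.89 with VS-4718, against 4.49, 4.47 and 4.53 in vehicle. SRSF3, an SR protein splicing factor to which YTHDC1 binds, followed at 0.0450, with 9.77, 9.69 and 9.73 with VS-4718, against 10.31, 10.30 and 10.22 in vehicle. MEX3A, an RNA-binding protein, differed from MAT2A by 0.0685, IFRD1 by 0.0740 and DCUN1D5 by 0.0766. MEX3A was low, between 0.63 and 1.36 log2 units, near the 0.70 that a row's mean had to exceed. SRSF3 was called over the whole table, and NME6, MEX3A, IFRD1 and DCUN1D5 were not. In each of these 5 rows the treated libraries lay below the vehicle libraries, which the measure itself favours.

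Genes other than MAT2A with a motif match had higher and lower means. Of 842 such genes with at least 1 match, 389 had a tested row, 62.5% of these had a lower mean with VS-4718 against 58.2% of all tested rows, and their median log2 fold change was -0.05. Of these rows 30 (7.71%) had an unadjusted limma p under 0.05, against 9.76% of all tested rows. The 2 called, where 0.130% of all tested rows were called, were SRSF3 (-0.55, SE 0.04) and PDK4 (0.81, SE 0.07), each with 1 match and an adjusted limma p of 0.014. With at least 2 matches, 19 other genes had a tested row, with a median of -0.05 and a range from -0.74 for CDH7 to 0.17; in limma none was called, and 2 (CDH7 and RPAP2) had an unadjusted p under 0.05, which is 10.5% against 9.76% of all tested rows. These groupings and the genes named from them were chosen after the values were seen.

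The rest of the pathway was described through 8 lists of 138 genes, of which 117 had a row and 111 were tested. In limma 0 of the 111 passed over all rows, and 12 lower and 6 higher genes had an unadjusted p under 0.05. These 18 are 16.2% of those tested, against 9.76% of all tested rows (6.74% lower and 3.02% higher). The groups did not overlap for 21 (18.9%, against 16.4% of all tested rows). Their median log2 fold change was -0.04, next to -0.03 for all tested rows. P-values below are adjusted limma values over all 9229 rows, and none of the genes named in the lists passed.

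Of the writer complex, all 5 further subunits in the list were tested, and 2 had a lower and 3 a higher mean, with a median log2 fold change of 0.01. RBM15B, a paralog of RBM15, stood at 3.68, 3.64 and 3.62 log2 units with VS-4718, against 4.01, 4.14 and 4.17 in vehicle. All treated libraries were below all vehicle libraries, with a log2 fold change of -0.46 (SE 0.09, adjusted p = 0.19). RBM15, which like RBM15B brings the complex to RNA, lay on the other side of 0, at 2.91, 2.84 and 2.90 with VS-4718 against 2.70, 2.48 and 2.44 in vehicle (0.34, SE 0.12, adjusted p = 0.42). ZC3H13, a scaffold subunit, had a log2 fold change of -0.15 (SE 0.10, adjusted p = 0.66). The groups did not overlap for these 3 of the 5, against 16.4% of all tested rows.

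Of 12 further readers 10 had a lower mean, with a median log2 fold change of -0.05. YTHDF2, a cytoplasmic reader that promotes decay of m6A-bearing mRNA, stood at 4.88, 4.81 and 4.91 with VS-4718, against 5.02, 5.17 and 4.99 in vehicle, without overlap. Its log2 fold change was -0.19 (SE 0.08, adjusted p = 0.49). IGF2BP1, an mRNA-stabilising reader, had -0.26 (SE 0.14, adjusted p = 0.61) and HNRNPC, a nuclear RNA-binding protein, -0.10 (SE 0.05, adjusted p = 0.60), both with overlapping groups.

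Around SAM itself, 7 methionine cycle genes were tested, with 2 lower and 5 higher means. SLC25A26, the mitochondrial SAM carrier, had a log2 fold change of 0.63 (SE 0.23, adjusted p = 0.48) with overlapping groups, and AHCYL2, an AHCY-like protein, one of -0.42 (SE 0.23, adjusted p = 0.60). Polyamine synthesis, which uses SAM, and methionine salvage had 8 of 11 lower means and a median of -0.09. AZIN1, an inhibitor of antizyme, stood at 6.02, 5.96 and 6.20 with VS-4718, against 6.29, 6.37 and 6.30 in vehicle (-0.26, SE 0.08, adjusted p = 0.37). AMD1, the SAM decarboxylase, had -0.37 (SE 0.19, adjusted p = 0.58) and APIP, a salvage enzyme, -0.23 (SE 0.12, adjusted p = 0.58), both with overlap. The folate cycle had 6 of 10 lower means. MTHFD2, a mitochondrial enzyme of that cycle, had -0.17 (SE 0.06, adjusted p = 0.46) without overlap, while MTHFD2L (-0.47, SE 0.27) and the carrier SLC25A32 (-0.21, SE 0.12) overlapped, each with an adjusted p of 0.61.

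Among 20 tested RNA methyltransferases and their partners 12 had lower means. CMTR1, which methylates the mRNA cap, stood at 5.31, 5.72 and 5.51 with VS-4718, against 4.76, 5.09 and 4.62 in vehicle, without overlap. Its log2 fold change of 0.69 (SE 0.15, adjusted p = 0.25) was the highest in the 8 lists. FTSJ1, a tRNA methyltransferase, had 0.24 (SE 0.09) and WDR4, the partner of METTL1, -0.26 (SE 0.09), both without overlap and each with an adjusted p of 0.45. Of 31 DNA and protein methyltransferases 19 had lower means. SUV39H2, a histone H3 methyltransferase, stood at 2.50, 2.59 and 2.63 with VS-4718, against 3.05, 3.09 and 3.01 in vehicle (-0.48, SE 0.10, adjusted p = 0.25). KMT5A, a histone H4 methyltransferase, had -0.54 (SE 0.20, adjusted p = 0.48) with overlap, and EHMT2 had -0.18 (SE 0.07, adjusted p = 0.49) without.

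The last list held 3′ end processing factors, among them the cleavage factor whose small subunit is known to act with METTL16 on MAT2A splicing; that subunit's gene, NUDT21, was not analysed here. Of 15 tested genes 9 had lower means, with a median of -0.01. CSTF3, a subunit of the cleavage stimulation factor, stood at 4.88, 4.80 and 4.99 with VS-4718, against 4.47, 4.46 and 4.43 in vehicle, and had the smallest p-value in the lists. Its groups did not overlap, and its log2 fold change was 0.44 (SE 0.08, adjusted p = 0.18). CPSF7, a cleavage factor subunit, had -0.14 (SE 0.08, adjusted p = 0.60) without overlap and WDR33 had -0.22 (SE 0.11, adjusted p = 0.58) with overlap.

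**Figure D5:**
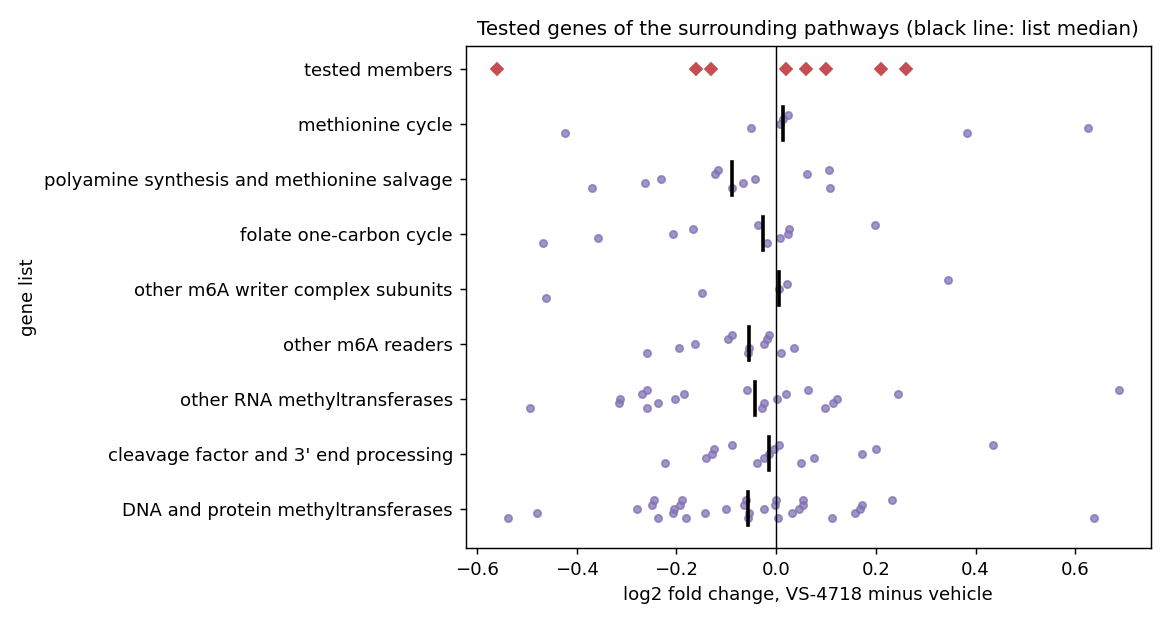
Log2 fold change, VS-4718 minus vehicle (x axis), of each tested gene in the 8 lists (purple points, black lines at the list medians) and of the 8 tested members (red diamonds). The list medians lie between -0.09 and 0.01, and MAT2A at -0.56 is the member farthest from 0.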

How the data were processed

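Cells were lysed in TRIzol, total RNA was purified on columns, and a company prepared and sequenced the libraries, per the labels' protocols. The submitters' processing notes name kallisto and GRCh38; for the index, the annotation and any filter, the sources used here give nothing. Per row and library the authors deposited a log2 value on a TPM-like scale: on the linear scale the columns sum to between 836527 and 840714. Since TPM keeps no depth, no counting interval can be given.

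Rows with a mean above the lowest 25% (over 0.70) were kept, 9229 of 12306. The test was limma 3.58.1 in R 4.3.3 (mean-variance trend, group as the only term, two-sided p-values, Benjamini-Hochberg adjustment over all tested rows, threshold 0.05). Log2 fold changes are VS-4718 minus vehicle. With 3 libraries against 3 an exact permutation test cannot go below a p of 0.1, so none was used. In simulated data with 9229 rows, 200 of them changed, 27.3% of changes of 0.5 log2 units and 76.1% of changes of 1 were recovered, with 0 false calls. The simulated noise was normal and independent between rows and libraries, with each row's estimated residual SD as its true SD. Real libraries may differ from this. Recovery also depends on how many rows change. The simulation had 128 true calls against 12 calls in the real fit, so these shares may not carry over. Members and lists were chosen with earlier results of these data known. Named were all members, PTK2, in each list any called gene and the 3 with the smallest p, and the 5 rows most like MAT2A, besides genes marked as chosen later and PMEL, MLANA, TYR, DCT, PECAM1, PTPRC and KRT18 from the markers. Human names came from GENCODE and RefSeq tables, locations and sequences from GENCODE 29 (GRCh38). Other settings tried were a replicate block, leaving out each library, median scaling, other filters, a pseudocount of 1, no variance trend and quality weights. Figures were drawn with matplotlib 3.10.9.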

Additional observations from a re-analysis of the deposited data

How the results depend on the processing

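The size of the MAT2A difference barely moved, while its call did. The log2 fold change of MAT2A was -0.56 with the replicate block and -0.56 without the variance trend, settings that cannot change it in this balanced design. It lay between -0.57 and -0.55 with each library left out in turn. Each group's range of at most 0.04 log2 units left it little room to move there. The call was lost in each of these 8 fits and held in the other 5. The members called, 1 in the fit reported, were then 0 with the replicate block, 0 without the trend and between 0 and 0 with a library left out. The rows called over the table, 12, were 0 with the replicate block (793 at an unadjusted p under 0.05), 0 without the trend (910) and between 0 and 7 with a library left out. The block and the left-out libraries leave fewer degrees of freedom, but the cause of the lost calls was not tested in any of these fits. Same-numbered libraries had residual correlations across rows of 0.13, 0.055 and 0.032, and those of differently numbered ones lay between -0.094 and 0.049. The main fit had no block because the labels do not say that the numbers mark a shared batch. Whether they do was not tested. The count of called list genes was 0 in all 13 alternatives. MAT2A minus MAT2B changed by between -0.73 and -0.60 over its 7 alternatives. For the other tested members 86 of 90 values kept their sign and stayed uncalled. With a library left out METTL16 ran from -0.16 to 0.22 and METTL14 from -0.34 to 0.05. Signs turned for METTL16 without vehicle replicate 1 (-0.16), without vehicle replicate 3 (-0.0039) and without VS-4718 replicate 2 (-0.10), and for METTL14 without vehicle replicate 1 (0.05). Depth is unknown, so the limit that counting sets on the low METTL16 and AHCY rows cannot be given.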
